A study of Homo sapiens with 18 samples.

Results

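Clone 4N-2 was compared with clone 4N-3, both of them tetraploid clones of the human line RPE1, to ask how far gene expression differs between clones of equal ploidy. The members were taken by their labels, libraries A, B and C of each clone, and made up 6 of the 18 RNA-seq libraries. RPE1 is an immortalised line of retinal pigment epithelium, the pigmented cell layer behind the retina. All 6 clones of the study, 3 tetraploid (4N) and 3 diploid (2N), came from cells grown in DMEM with 10% fetal bovine serum that had been exposed to the Aurora kinase inhibitor ZM447439 (2.5 uM, 72 h), had survived for weeks, and were then cloned from single cells and sorted into ploidies by DNA content. Clones 2N-2 and 2N-3 were the diploid clones taken from the same plates as 4N-2 and 4N-3. Cells of 4N-2 and 2N-2 had been stained with the DNA dye Hoechst 33342 before they were cloned again, which the labels do not give for 4N-3 or 2N-3, so that an effect of the staining and of the clone cannot be told apart in the tetraploid comparison. Each group is a single clone, and its 3 libraries are the submitters' biological replicates, so that a test says that 2 clones differ and not that 2 kinds of tetraploid cell differ.

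Tetraploid cells form when a cell copies its DNA and leaves mitosis without dividing, as cells do when Aurora kinases are blocked. In many such cells the CDK inhibitor CDKN1A rises and the cycle stops in G1, and clones that grow out nevertheless often gain or lose chromosomes. A clone grown from 1 cell also carries the copy number and the silenced genes of its founder, which is why clones of 1 line can differ without any difference in treatment.

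Expression was read as RPKM (reads per kilobase of gene and per M reads, M for mega), which the authors had computed. The libraries of 4N-2 held 39.4 to 45.1 M reads in genes and those of 4N-3 held 38.7 to 44.0 M. The values log2(RPKM + 0.5) were compared for 9704 genes with 1 RPKM or more in at least 3 of the 18 libraries. A gene passed the test at a Benjamini-Hochberg adjusted p below 0.05 (limma), and it was called where the difference was also at least 2-fold. Because the length in these RPKM values is the whole gene with its introns, genes of long span have low values, and 23419 genes were also tested on whole reads recovered from the table and given as reads per M. Levels are compared between clones and not between genes. Log2 differences are 4N-2 minus 4N-3, so that a positive value means higher in 4N-2, and they understate the change of genes near 0 RPKM.

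The labelled cell type was checked against its markers. Of 23 retinal pigment epithelium markers, 5 reached the RPKM minimum and 17 the minimum for reads. On reads 4 of the 17 passed higher in 4N-2 and 3 lower, against 17.1% and 18.5% of all genes tested on reads. The list was split, with 3 called higher and 2 lower on reads, values from -2.86 to 9.44 and a median of 0.13. The markers RDH5 (2.08 on RPKM) and GPR143 (9.44 on reads) passed higher and are described further on. The transcription factor OTX2, the keratin KRT18 and the transcription factor MITF were at 2.75, 91.5 and 20.1 in 4N-2 and at 3.30, 76.2 and 18.3 in 4N-3 (RPKM, RPKM and reads per M), whereas the visual cycle enzyme RPE65 had 0 reads in 4N-2 and 11 in 4N-3, and the pigment enzyme TYR had 2 and 0. Of the markers of skeletal and heart muscle, none of 9 reached the minimum for reads and of those of blood cells 2 of 9, LYZ among them, 1 of which passed higher and 1 lower. Endothelial markers reached it in 4 of 8, epithelial markers in 3 of 8 and neuronal markers in 5 of 9. Of these 3 lists, TEK passed higher in 4N-2 (95 reads against 46), and ESRP1 (5 against 23), MAP2 (2492 against 4716) and SNAP25 (2215 against 3054) passed lower, SNAP25 not when C of 4N-3 or any 1 library of 4N-2 was left out. Their part in other results was not tested. MYOG, MYH7, CD3E and HBB had 0 reads in both clones. Among libraries, C of 4N-3 stood apart from A and B. The SD of its log2 difference from them was 0.302 and 0.310, against 0.178 between A and B and 0.22 to 0.283 within 4N-2, and results that it moves are given with and without it.

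The clones differed at many genes. In 4N-2, 180 genes were called higher (1.85% of those tested) and 194 lower (2.0%). At any fold, 1676 passed higher (17.3%) and 1445 passed lower (14.9%). On recovered reads 1434 genes were called higher (6.12%) and 1524 lower (6.51%), and 3993 (17.1%) and 4342 (18.5%) passed. Without library C of 4N-3, 177 genes were called higher and 168 lower. Of the 180, 160 were called again (88.9% of the 180 and 90.4% of the 177), and of the 194, 150 were (77.3% and 89.3%). The plot of mean expression shows how the called genes lie over the whole range of levels.

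**Figure D1:**
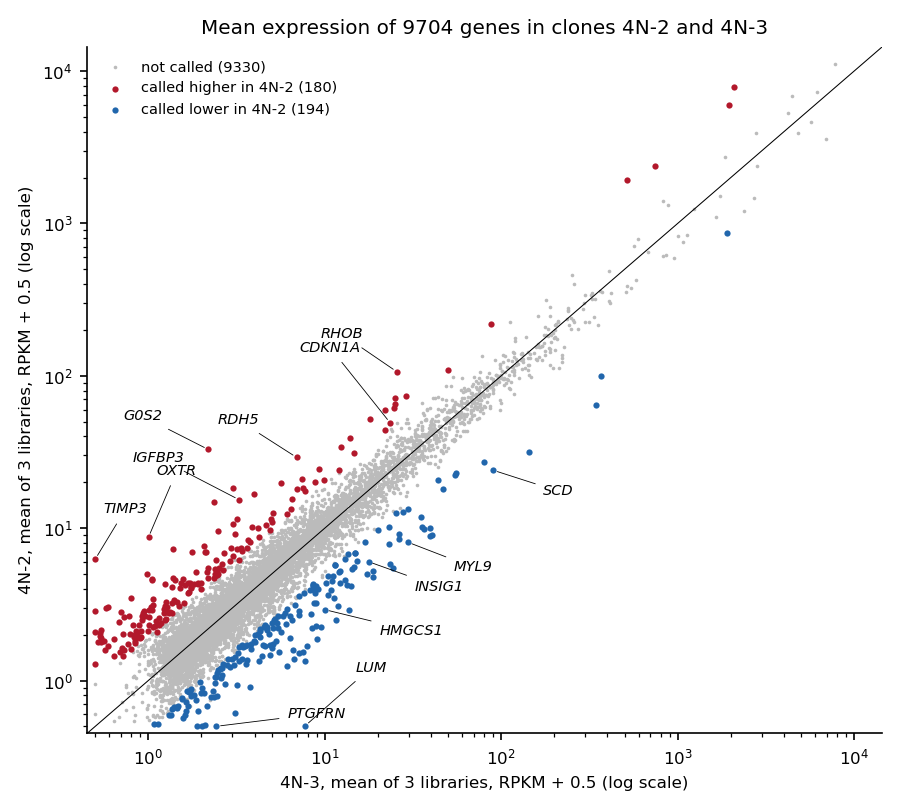
Each point is 1 of 9704 genes, placed by its mean over the 3 libraries of 4N-3 (x axis) and of 4N-2 (y axis), both as RPKM + 0.5 on log scales, with the line of equal values. The 180 genes called higher in 4N-2 (red) and the 194 called lower (blue) lie on both sides over the whole range of levels, with TIMP3 at the left edge and LUM and PTGFRN at the bottom edge near 0 in 1 clone.

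The other 4 clones show which of the 2 tetraploid clones stood apart. Of the 180 genes called higher, 4N-2 had the highest mean of all 6 clones in 174, whereas 4N-3 had the lowest mean in 33. Of the 194 called lower, 4N-2 was the lowest clone in 189 and 4N-3 the highest in 32. Over all tested genes 4N-2 was highest in 3110 and lowest in 2751 of 9704, and 4N-3 in 779 and 592. The median of 4N-2 minus the mean of the 4 other clones was 1.36 on the log2 scale for the genes called higher and -1.31 for those called lower, and that of 4N-3 was 0.03 and 0.01. In a principal component analysis the first component, with 37.4% of the variance, held 4N-2 at 36.4 to 39.6, all other libraries at or below 2.56, and 4N-3 at 2.56, 2.41 and -9.09 for A, B and C.

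The 12 genes with the largest differences towards 4N-2, chosen by a rule on size and separation, include receptors, secreted proteins and a lipase inhibitor. G0S2, an inhibitor of the lipase that empties lipid droplets, was at 30.9, 31.8 and 34.5 RPKM in A, B and C of 4N-2 and at 2.15, 1.82 and 1.07 RPKM in those of 4N-3. The groups were far apart (log2 difference 3.95, SE 0.22, adjusted p = 4.5e-09), and the other 4 clones were at 1.02 to 4.31 RPKM, like 4N-3. TIMP3, an inhibitor of matrix metalloproteases held in the extracellular matrix, was at 6.54, 6.21 and 4.58 RPKM in 4N-2 and had only 8 reads in all 3 libraries of 4N-3 together, against 43520 in 4N-2. In no other clone did TIMP3 have more than 46 reads over 3 libraries. OXTR, the oxytocin receptor, was at 8.10, 7.71 and 8.88 RPKM against 0.577, 0.603 and 0.329 (3.13, SE 0.11, adjusted p = 3.3e-11). It was highest in library C of 4N-2 and lowest in C of 4N-3, and without the latter the difference was 3.00.

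Further down, IGFBP3, which binds insulin-like growth factors in the extracellular space, was at 15.0, 14.1 and 15.5 RPKM in 4N-2 and 3.04, 3.13 and 2.11 in 4N-3 (2.25, SE 0.11). RDH5, a retinol dehydrogenase of the visual cycle, was at 27.2, 28.9 and 29.9 against 6.19, 5.66 and 7.40 RPKM (2.08). RHOB, a small GTPase of endosomes and the actin skeleton that was added to the 12 after its values were seen, was at 105, 102 and 111 against 26.2, 26.5 and 22.6 RPKM (2.06). The rule that chose these genes required libraries of the 2 clones that did not overlap, so that this separation is not a result. Others of the 12 were C11orf91 (2.41), the sulfotransferase GAL3ST4 (2.38), the troponin TNNT1 (2.36), the noncoding RNA PICART1 (2.14), ALS2CL (2.13) and VIM-AS1 (2.12). VIM-AS1 overlaps VIM on the other strand, whose use in counting is not given in the sources used here, and VIM itself was lower in 4N-2 (-0.53). The potassium channel KCNK6, also added after its values were seen, was at 6.53, 6.26 and 6.49 against 1.37, 1.29 and 1.12 RPKM.

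In the other direction, LUM, the matrix proteoglycan lumican, was at 6.14, 5.60 and 10.0 RPKM in 4N-3 and at 0.011, 0.00545 and 0 in 4N-2 (-3.90, SE 0.14, adjusted p = 5.1e-11). All 4 other clones had LUM, at 2.73 to 13.8 RPKM, so that 4N-2 was the clone without it. Apart from LUM and FNDC10 (-2.33), a protein of unknown role on chromosome 1, the 12 genes furthest in this direction were short noncoding RNAs and mitochondrial tRNAs, which are described with their class further on. Protein-coding genes were therefore named in their place after their values were seen. VEGFA, the main growth factor for blood vessels, was at 9.02, 8.86 and 6.18 RPKM in 4N-2 against 22.4, 22 and 33.1 (-1.62), BMP4, a bone morphogenetic protein, at 1.18, 1.14 and 1.05 against 3.85, 3.92 and 5.71 (-1.60), and SPP1, osteopontin, at 3.67, 3.48 and 4.11 against 12.2, 12.7 and 13.7 (-1.65). Library C of 4N-3 was the highest of its clone for all 3. The forkhead factor FOXS1 (-2.07) and the secreted glycoprotein LGALS3BP (-1.96) were also lower. These genes too were taken only where the libraries of 4N-3 and 4N-2 did not overlap.

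Genes of cholesterol synthesis were lower in 4N-2 at nearly every step. Cells control it through the SREBP factors, which INSIG1 and its partners hold in the endoplasmic reticulum when sterols are plentiful and which otherwise switch on the enzymes of the pathway. Of 24 tested genes of cholesterol synthesis and uptake, 22 passed lower and 1 higher, against 14.9% and 17.3% of all tested genes, and 9 were called lower, against 2.0%, with a median log2 difference of -0.78 against 0.01 over all tested genes. HMGCS1, an early enzyme of the pathway, was at 2.35, 2.46 and 2.43 RPKM in 4N-2 and at 8.72, 8.10 and 11.8 in 4N-3 (-1.77, SE 0.12, adjusted p = 6.0e-08). INSIG1 was at 5.79, 5.42 and 5.34 against 15.4, 14.6 and 21.7 RPKM (-1.54). The 3 libraries of 4N-2 lay close together, and C of 4N-3 was the highest of its clone in both genes. MVD (-1.53), DHCR7 (-1.16), IDI1 (-1.10), FDPS (-1.06) and HSD17B7 (-1.01), enzymes between mevalonate and cholesterol, were lower as well. SREBF2, the gene of the SREBP factor that acts mainly on these genes, differed least among those that passed lower, at 2.16, 2.14 and 2.10 against 2.77, 2.59 and 3.33 RPKM (-0.36). EBP, a sterol isomerase on the X chromosome, passed higher (0.41, adjusted p = 0.045), but not when any 1 of the 6 libraries was left out. Without C of 4N-3, 22 genes again passed lower, 6 of them called, with a median of -0.67, and the 1 that passed higher was then the sterol reductase TM7SF2 (0.71) instead of EBP. In 22 of the 24 genes 4N-2 was the lowest of the 6 clones, and the median distance from the 4 other clones was -0.99 for 4N-2 and -0.14 for 4N-3.

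Fatty acid genes were split. Of 16 tested genes of fatty acid synthesis and lipid droplets, 6 passed lower and 3 higher, against 14.9% and 17.3% of all tested genes. Those that passed higher were thus near the share of all genes. SCD, the desaturase that makes oleic acid, was at 24.5, 24.1 and 21.8 RPKM in 4N-2 and 74.5, 68.0 and 127 in 4N-3 (-1.86, and -1.58 without C). FASN, the fatty acid synthase, was at 9.18, 9.31 and 9.20 against 19.1, 18.1 and 21.2 RPKM (-1.03), and SREBF1, the SREBP gene tied to fatty acids, was also lower (-0.66). The 3 genes that passed higher all code for proteins of lipid droplets, namely G0S2, PLIN2 (0.58) and PLIN3 (0.49).

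Promoters were looked at because the cholesterol genes moved together. The 250 bases before the start were available for 18 of the 25 listed genes (RefSeq, GRCh38.p14) and were searched on both strands for a sterol element, TCACNCCAC, and for the CCAAT box, CCAAT, which NF-Y binds beside SREBP. The CCAAT box was in 15 of 18 (83.3%), against 33.0% of 27305 promoters of the same length, and the sterol element in 1 (5.56% against 0.875%). The CCAAT share was 77.8% in 27 promoters of mitosis genes, and a match is only a run of letters. The promoter with the sterol element, that of SREBF2, and those of 2 of the enzymes that differed most are shown, 5′ to 3′ on the strand of the gene, the sterol element in capitals in the first and CCAAT or its complement in capitals in the others.
SREBF2, chr22:41832855-41833104, plus strand: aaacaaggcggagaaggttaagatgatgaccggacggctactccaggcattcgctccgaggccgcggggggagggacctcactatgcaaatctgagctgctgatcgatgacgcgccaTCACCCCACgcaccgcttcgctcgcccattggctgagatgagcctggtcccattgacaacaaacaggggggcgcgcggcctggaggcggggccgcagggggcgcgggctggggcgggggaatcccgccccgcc
HMGCS1, chr5:43313413-43313662, minus strand: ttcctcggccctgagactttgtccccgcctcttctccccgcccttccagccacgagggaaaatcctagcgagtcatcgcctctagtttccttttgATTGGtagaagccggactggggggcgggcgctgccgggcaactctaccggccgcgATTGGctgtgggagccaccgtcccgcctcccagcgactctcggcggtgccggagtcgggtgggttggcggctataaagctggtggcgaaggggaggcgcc
MVD, chr16:88663092-88663341, minus strand: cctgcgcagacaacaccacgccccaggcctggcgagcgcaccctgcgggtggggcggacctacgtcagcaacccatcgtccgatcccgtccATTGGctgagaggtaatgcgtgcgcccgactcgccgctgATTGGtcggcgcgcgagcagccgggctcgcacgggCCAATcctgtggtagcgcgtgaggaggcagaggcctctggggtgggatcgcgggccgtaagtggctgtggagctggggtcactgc

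Genes of a list known to be induced by DNA damage were mostly higher in 4N-2. Of 26 tested, 22 passed higher and 1 lower, against 17.3% and 14.9% of all genes, with a median of 0.64, and 4N-2 was the highest of the 6 clones in 23. CDKN1A, the CDK inhibitor p21, was at 47.0, 48.2 and 50.9 RPKM in 4N-2 and at 22.5, 20.7 and 25.6 in 4N-3 (1.07, SE 0.09, adjusted p = 8.1e-07). The 3 diploid clones were lower than either, at 11.3 to 14.1 RPKM, and 4N-1 lay between at 30.8. BTG2, an antiproliferative gene, was at 9.06, 8.35 and 9.70 against 1.94, 1.82 and 2.16 RPKM (1.95), and FDXR, a mitochondrial ferredoxin reductase, at 4.46, 4.72 and 4.75 against 1.53, 1.52 and 1.86 (1.27). These were the 3 called genes of the list, and MDM2, a ubiquitin ligase, passed at 6.88, 6.52 and 7.38 against 4.55, 4.5 and 4.88 RPKM (0.53). Death receptors and BH3 genes were among the others, FAS at 0.83, TNFRSF10B at 0.87, BBC3 at 0.76 and PMAIP1 at 0.76. PLK2 was the exception, lower by test (-0.44). Without C of 4N-3, 22 genes again passed higher and 1 lower, with a median of 0.65.

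For genes of the cell cycle the counts rested on library C of 4N-3. With all libraries, 8 of 32 tested mitosis genes passed higher in 4N-2 and 0 lower, with a median of 0.21. Of 25 DNA replication genes 4 passed higher and 0 lower. Over all tested genes 17.3% passed higher and 14.9% lower, so that the replication genes that passed higher were near the share of all genes. Without C of 4N-3, 2 mitosis genes passed higher and 4 lower, and 2 replication genes higher and 5 lower, with medians of 0.02 and -0.03. Of all 9704 genes 1491 then passed higher and 1462 lower. CDK1, the mitotic kinase, was at 8.33, 9.33 and 11.1 RPKM in 4N-2 and at 6.88, 7.11 and 3.82 in 4N-3. Library C of 4N-3 was the lowest of the 6. PCNA, the replication clamp, was at 21.9, 21.4 and 29 against 16.2, 16.7 and 9.70 RPKM, and TK1 at 7.36, 8.15 and 9.40 against 5.41, 5.38 and 3.23. CDK1, PCNA and TK1 passed with and without C (0.69 and 0.42, 0.77 and 0.52, 0.79 and 0.57). Their differences were thus smaller without it. CDK1 lost the test in another setting, whereas PCNA and TK1 kept it in all.

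Among the regulators of G1, CDKN2B, the inhibitor p15 of CDK4 and CDK6, was lower in 4N-2, at 6.53, 7.06 and 5.39 RPKM against 12.8, 11.1 and 19.0 (-1.09, and -0.87 without C), and CDKN1B, the inhibitor p27, was lower at 10.6, 9.78 and 9.15 against 13.3, 13.6 and 14.3 (-0.47). CCND2, cyclin D2, was at 21.6, 24.6 and 18.8 reads per M in 4N-2 and 10.5, 9.79 and 12.4 in 4N-3 (0.99, SE 0.12, adjusted p = 5.8e-06). Clone 4N-1 was at 18.8 reads per M, and 2N-2, 2N-3 and 2N-1 were at 0.0128, 0.492 and 0.0654, so that the gene was nearly absent from the diploid clones and differed about 2-fold between the tetraploid ones. CCND3 passed higher (0.51), but not without C of 4N-3 (0.34, adjusted p = 0.055). CCND1, CDK4 and CDK6 did not pass, with values of 0.22, -0.19 and -0.16 and overlapping libraries.

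**Figure D2:**
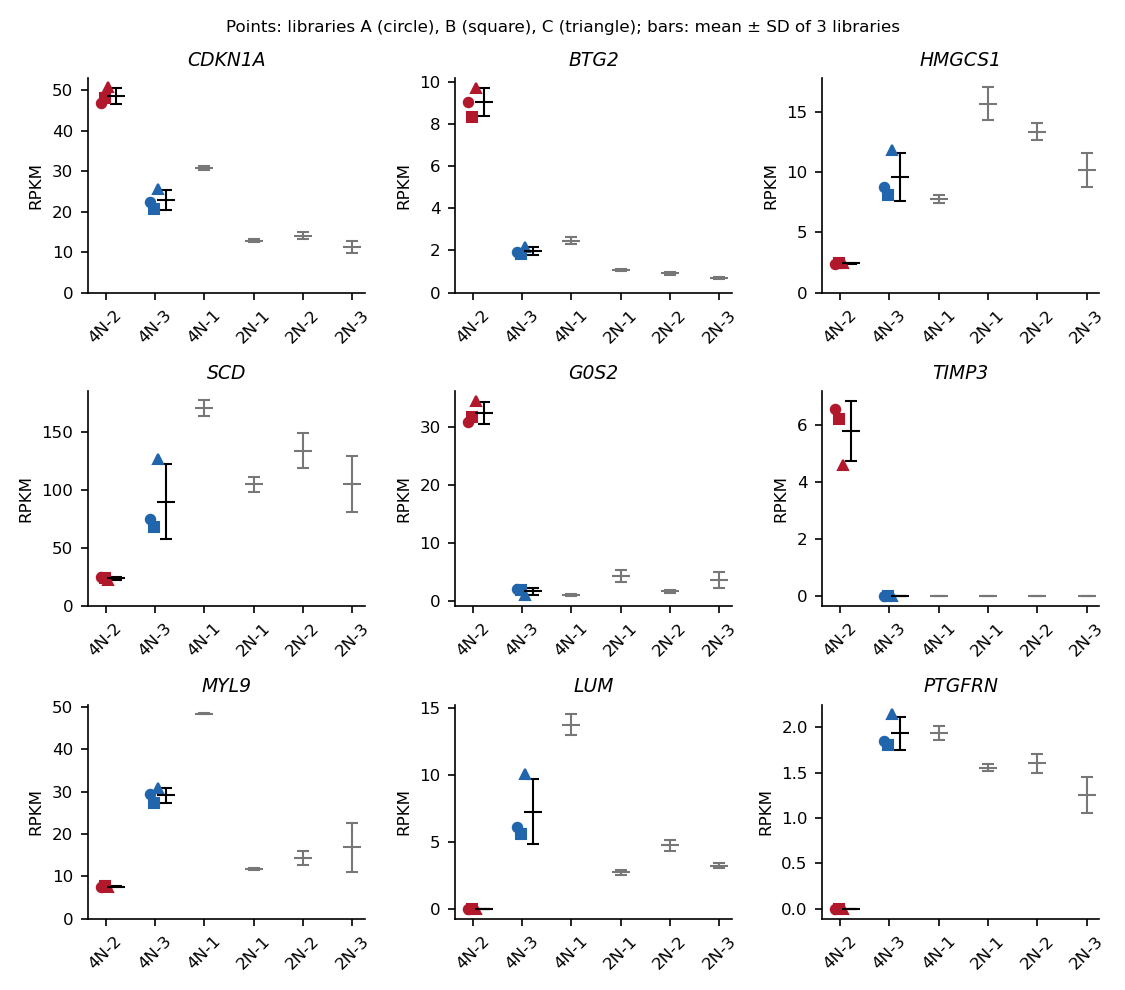
RPKM of 9 genes in each library of 4N-2 (red) and 4N-3 (blue), with the mean and SD of 3 libraries beside them, and the mean and SD of the other 4 clones in grey. The libraries of the 2 clones do not overlap in any panel, and 4N-2 is above or below the 5 other clones in each. C of 4N-3 (triangle) is the highest of its clone in every panel but those of G0S2 and TIMP3, where it is the lowest.

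Of 23 collagen chains tested on reads, 13 passed lower and 5 higher, where 18.5% and 17.1% of all genes tested on reads did so (median -0.66, against -0.03 over all 23419 genes), and of 28 other matrix proteins 15 passed lower and 6 higher. The basement membrane chains COL4A1 and COL4A2, which lie head to head on chromosome 13, were at 0.584, 0.580 and 0.510 against 2.12, 1.75 and 1.88 RPKM and at 0.901, 0.887 and 0.861 against 2.6, 2.34 and 2.51 RPKM (-1.19 and -1.11). The pair COL4A3 and COL4A4 on chromosome 2 was lower still, COL4A3 at 0.786, 0.577 and 0.494 reads per M against 8.45, 7.57 and 25.0 (-4.26) and COL4A4 at 2.91, 3.06 and 2.18 against 16.3, 15.5 and 38.3 (-2.99). For this second pair C of 4N-3 was far above A and B, and the differences without it were -3.70 and -2.57. POSTN, periostin, was at 1.60, 1.46 and 1.5 RPKM in 4N-3 and below 0.006 in each library of 4N-2. VCAN, the proteoglycan versican (-1.54), FN1, fibronectin (-0.84), and SPARC (-0.79) passed lower. The exceptions included COL6A1, at 2.01, 1.82 and 1.59 against 0.540, 0.549 and 0.859 RPKM (1.01), the proteoglycan FMOD (1.73) and the crosslinking oxidase LOX (0.69).

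Of 20 proteases and inhibitors of the matrix tested on reads, 9 passed higher and 4 lower, against 17.1% and 18.5% of all genes. Beside TIMP3, its relative TIMP4 was at 3.12, 3.34 and 3.05 reads per M in 4N-2 and 0.0792, 0.0917 and 0.0705 in 4N-3 (5.11). ADAMTS1, a protease of proteoglycans, was at 8.44, 9.05 and 11.3 against 4.13, 4.22 and 1.69 RPKM (1.47, and 1.10 without C), and PLAT, the tissue plasminogen activator, at 25.9, 24.6 and 21.0 against 8.49, 7.70 and 10.0 (1.40). The membrane metalloprotease MMP14 (-0.74) and MMP2 (-0.46) were lower.

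Contractile genes of smooth muscle were mostly lower, with 8 of 12 tested passing lower and 2 higher, against 14.9% and 17.3% of all genes on RPKM (median -0.46). MYL9, the regulatory myosin light chain, was at 7.55, 7.61 and 7.57 RPKM in 4N-2 and at 29.4, 27.3 and 30.9 in 4N-3 (-1.87, SE 0.16). Clone 4N-1 was higher again at 48.4 RPKM and the diploid clones were at 11.8 to 16.8, so that 4N-2 and 4N-3 lay on opposite sides of them. ACTA2 (-0.76), CNN2 (-0.83) and TAGLN (-0.50, though not when 4N-2 A, B or C or 4N-3 A or B was left out) passed lower, and the actin crosslinker FLNC was higher, at 39.9, 37.6 and 38.2 against 14.4, 14.6 and 11.1 RPKM (1.51). Of 18 genes of TGF-beta ligands, receptors and responses, 6 passed lower and 4 higher. ID2, an inhibitor of differentiation factors, was at 4.13, 3.66 and 3.74 against 0.871, 0.965 and 1.28 RPKM (1.5), and FST, follistatin, was lower (-1.02). ENG, the coreceptor endoglin, was at 9.99, 8.51 and 6.71 reads per M against 0.106, 0.115 and 0.235 (5.73), with 2N-2 at 0.312, 2N-3 at 2.89 and 2N-1 at 6.15.

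Adhesion genes changed in both directions. Of 6 keratins tested, 4 passed, all of them higher in 4N-2, where 17.3% of all genes passed higher on RPKM. KRT81 was at 2.48, 2.88 and 2.27 against 0.667, 0.530 and 0.422 RPKM (1.55). KRT15 was at 2.63, 2.82 and 2.15 against 0.709, 0.796 and 0.847 (1.24). Among 11 integrins 5 passed lower and 2 higher, against 14.9% and 17.3% of all genes on RPKM. ITGA11, a collagen receptor, was at 0.305, 0.295 and 0.227 against 1.76, 1.46 and 2.36 RPKM (-1.59), whereas both chains of the laminin receptor of hemidesmosomes were higher, ITGA6 at 3.4, 3.07 and 3.47 against 1.25, 1.26 and 1.11 RPKM (1.16) and ITGB4 at 17.0, 14.8 and 9.20 against 1.14, 1.38 and 2.82 reads per M (2.98). CADM1, an adhesion molecule of the immunoglobulin family, was at 106, 96.1 and 83.7 reads per M in 4N-2 and at 0.0792, 0.0688 and 0.117 in 4N-3 (9.91), and the 4 other clones were at 0 to 0.143. PTGFRN, a partner of tetraspanins of the same family, showed the reverse, at 1.85, 1.81 and 2.14 RPKM in 4N-3 and below 0.002 in each library of 4N-2, with 1.26 to 1.94 RPKM in the 4 other clones. SNAI2, a repressor of epithelial genes, was at 6.88, 6.57 and 5.53 against 2.29, 2.43 and 1.8 RPKM (1.35), and CNTN1, contactin 1, at 19.2, 20.7 and 20.1 reads per M against 0.0528, 0.0917 and 0.0705 (7.91).

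Of 25 G protein-coupled receptors of peptides, lipids and amines tested on reads, 12 passed higher and 2 lower, against 17.1% and 18.5% of all genes, and 9 were called higher, against 6.12% (median 0.51). Besides OXTR, LPAR1, a receptor of lysophosphatidic acid, was at 173, 154 and 163 reads per M against 66.2, 72.3 and 51.4 (1.38). GPR143, the receptor of pigment organelles, was at 36.3, 38.1 and 40 against 0.132, 0.0917 and 0 (9.44), and it was also nearly absent from 4N-1, at 0.0377, and present in the diploid clones, at 11 to 30.3 reads per M. F2RL1, a receptor cut open by proteases, was the large exception, at 0.760, 0.602 and 0.718 against 9.93, 7.64 and 6.34 (-3.47).

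Some ligands of the EGF receptor passed higher. TGFA, transforming growth factor alpha, was at 9.71, 9.71 and 8.97 reads per M against 0.898, 0.849 and 0.892 (3.41), AREG, amphiregulin, at 2.03, 1.86 and 2.40 against 0.370, 0.183 and 0.0939 (3.42), and HBEGF, heparin-binding EGF, at 2.30, 2.22 and 2.28 against 0.902, 0.878 and 0.627 RPKM (1.09). EGF itself was lower (-1.66), and of 14 members of the family tested on reads 5 passed higher and 3 lower, against 17.1% and 18.5% of all genes, with a median of -0.06. Cytokines that senescent cells secrete were split, with 5 of 15 passing higher and 6 lower. LIF, of the interleukin 6 family, was at 18.1, 18.0 and 16.7 against 48.1, 46.7 and 44.0 RPKM (-1.37), and IL6 at 0.348, 0.316 and 0.227 against 0.958, 0.768 and 2.00 (-1.07), while CSF2, the factor GM-CSF, was at 3.93, 3.52 and 3.99 against 0.900, 0.917 and 0.415 (1.82), and CXCL8, interleukin 8, at 2.03, 1.73 and 2.13 against 0.502, 0.573 and 0.446 reads per M (1.93).

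Of 23 tested immediate early genes, which growth factors switch on within minutes, 10 passed higher and 3 lower, against 17.3% and 14.9% of all genes on RPKM. KLF2 was at 19.5, 15.9 and 18.3 against 6.90, 7.76 and 6.37 RPKM (1.29) and DUSP1, a phosphatase of MAP kinases, at 15.5, 15.6 and 15.9 against 7.76, 7.49 and 8.77 (0.93), while IER3 was lower (-0.80). EGR1 and FOS did not pass and were low in both clones. EGR1 was at 0.717 ± 0.239 and 0.698 ± 0.295 RPKM and FOS at 0.316 ± 0.123 and 0.322 ± 0.286 (SD, n = 3 each), where the 4 other clones had 8.55 to 16.8 and 4.28 to 7.51 RPKM. Of 16 YAP and TAZ targets 7 passed higher and 3 lower, RHOB the furthest of them and then AXL, a receptor kinase, at 23.7, 23.3 and 24.1 against 12.7, 13.0 and 9.09 RPKM (1.01).

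Of 16 Notch genes tested on reads, 6 passed higher and 2 lower, against 17.1% and 18.5% of all genes, the ligand JAG1 at 38.3, 37.7 and 29.7 against 19.1, 17.4 and 17.7 reads per M (0.95) and the target HES1 at 2.70, 2.87 and 1.51 against 6.07, 6.48 and 7.33 RPKM (-1.35). Of 32 interferon-stimulated and antigen presentation genes tested on reads, 7 passed higher and 12 lower, against the same shares, with OAS2, a sensor of viral RNA, at 0.786, 0.376 and 0.314 against 2.69, 3.03 and 4.20 reads per M (-2.83). Of 19 genes of the unfolded protein and integrated stress response tested on RPKM, 7 passed lower, 1 passed higher and 11 did not pass, against 14.9% and 17.3% of all genes that passed lower and higher. HSPA5, the endoplasmic reticulum chaperone BiP, passed lower, at 64.4, 65.9 and 76.2 against 102, 102 and 90.5 RPKM (-0.51). Of 19 heat shock genes 7 passed higher and 3 lower, of 18 genes of glycolysis 3 and 2, of 27 lysosomal genes 4 and 9, and of 28 ribosomal proteins 0 and 1. Among homeobox genes HOXD13, which marks the ends of limbs, was at 1.04, 1.20 and 1.05 reads per M in 4N-2 and had 1 read in all of 4N-3. In the HOXB cluster HOXB6 was lower (-1.64) and HOXB9 higher (1.01). The plot of gene lists sets the medians side by side.

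**Figure D3:**
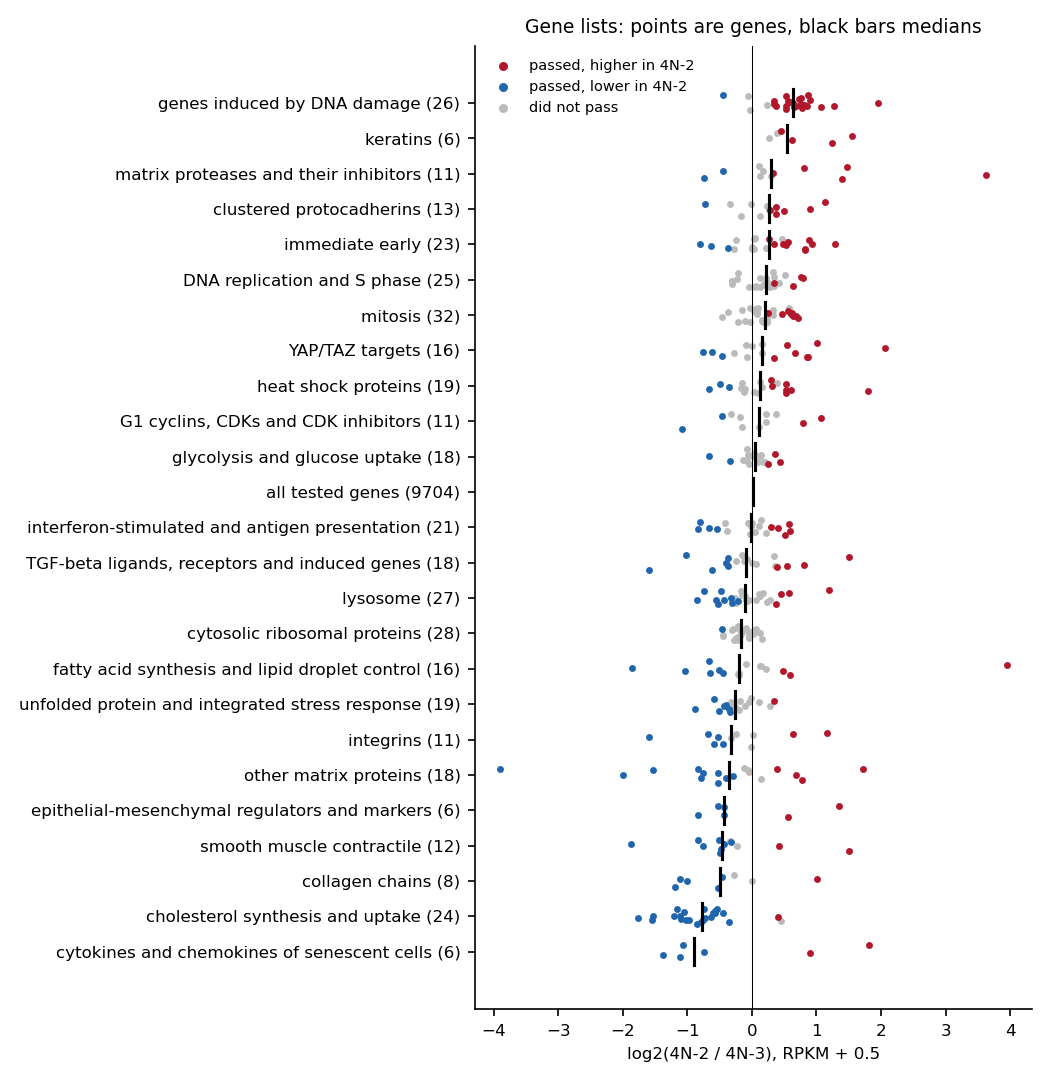
Log2 difference of RPKM + 0.5 between 4N-2 and 4N-3 (x axis) for every tested gene of the lists with 6 or more of them, ordered by their medians (black bars), with the number of tested genes in brackets. Genes that passed are red where higher and blue where lower in 4N-2. The genes induced by DNA damage, at a median of 0.64, are nearly all red and the cholesterol genes, at -0.78, nearly all blue, while the median over all 9704 genes is 0.01.

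A few genes were present in 1 tetraploid clone and absent from the other. A gene was taken as on at 300 reads or more over the 3 libraries of a clone and as off at 3 or fewer. Of 40853 genes above 0 in any library, 9 were on in 4N-2 and off in 4N-3 (0.022%), and 4 the other way (0.00979%). TBX3, a T-box factor of development, had 728, 655 and 609 reads in A, B and C of 4N-2 and 0, 1 and 2 in 4N-3, a ratio of 665 per M (95% interval 227 to 3227, for counting error only). It was off in 4N-1, 2N-2 and 2N-1 as well and had 28 reads in 2N-3. RIN3, an activator of RAB5 in endosomes, had 632, 616 and 574 reads in 4N-2 and 0 in 4N-3, at least 608-fold higher against a floor of 3 reads over the group, and here the 4 other clones had 801 to 1486 reads, so that 4N-3 was the clone without it. APBB1IP, a Rap1 effector, had 1584 reads against 1 and was on in 2N-2 with 910. PAGE1, a cancer-testis antigen on the X chromosome, had 968 reads against 1 and 0 in the 4 other clones. The other 5 genes on in 4N-2 were PROSER2 (976 reads against 0, at least 326-fold higher), the antisense gene ENSG00000259221 (1389 against 2), DMBT1 (342 against 3), XACT (342 against 1) and PDGFRL (317 against 0, at least 106-fold higher).

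Of the genes on in 4N-3, the zinc finger gene ZNF354C had 188, 230 and 199 reads in 4N-3 and 1 in 4N-2 (ratio 616, interval 110 to 24380), with 540 to 978 reads in the 4 other clones. GYPE, a gene of red cell membrane proteins with near-identical copies whose reads may be shared, had 330 against 2. UGT1A4 and UGT1A3, glucuronosyltransferases that detoxify drugs, had 346 and 343 reads against 3 and 3. They overlap in 1 locus on chromosome 2 with shared last exons, so these are not separate findings, and 4N-1 had 333 and 330 reads against 9 to 89 in the diploid clones. SERP2 and ZMAT1, protein-coding genes just outside the limit for off, had 8 and 35 reads in 4N-2 against 710 and 1806 in 4N-3. With 10 reads or fewer as off, 24 genes were on in 4N-2 and 15 in 4N-3, and with 1000 or more as on, 4 and 0.

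**Figure D4:**
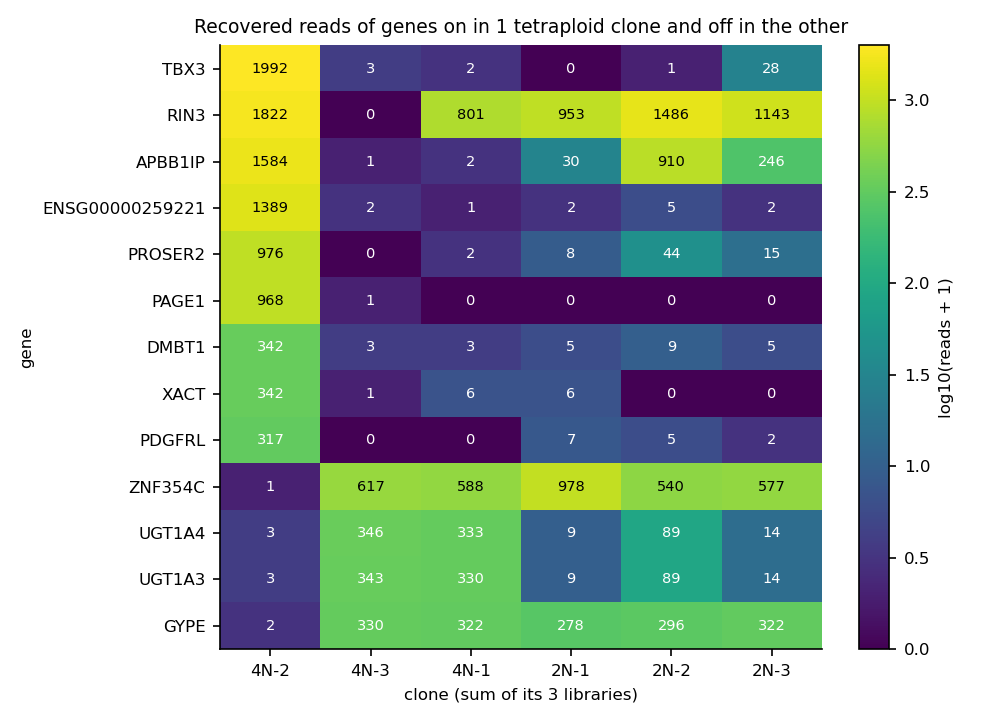
Reads over the 3 libraries of each clone (columns) for the 13 genes on in 4N-2 or in 4N-3 and off in the other (rows), coloured by log10(reads + 1) with the number of reads printed. RIN3 is absent from 4N-3 only, ZNF354C and GYPE from 4N-2 only, and PAGE1 is present in 4N-2 only.

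The promoters of these genes were searched for CpG, the pair of neighbouring bases at which human DNA is methylated, although methylation was not measured here. Of the 13 genes, 10 had a promoter in the RefSeq table (GRCh38.p14). The ratio of observed to expected CpG in the 250 bases before the start was above the median of all promoters, 0.556, for 4 of the 10 and below it for 6. It was 1.18 for PROSER2, 0.968 for ZNF354C, 0.730 for RIN3 and 0.665 for APBB1IP, and it was 0.45 for PAGE1 and XACT, 0.31 for DMBT1, 0.264 for UGT1A3, 0.163 for UGT1A4 and 0.0829 for GYPE. TIMP3, which is not among the 13, had 0.802. TIMP3, RIN3 and ZNF354C are examples of genes near 0 in 1 of the 2 tetraploid clones, and other such genes are not shown. The ratios of TIMP3, RIN3 and ZNF354C were all above the median of 0.556, whereas those of 6 of the 10 were below it. The promoters shown are thus not typical of the 10. They are given 5′ to 3′ on the strand of the gene with CG in capitals, 26, 25 and 26 times.
TIMP3, chr22:32801455-32801704, plus strand: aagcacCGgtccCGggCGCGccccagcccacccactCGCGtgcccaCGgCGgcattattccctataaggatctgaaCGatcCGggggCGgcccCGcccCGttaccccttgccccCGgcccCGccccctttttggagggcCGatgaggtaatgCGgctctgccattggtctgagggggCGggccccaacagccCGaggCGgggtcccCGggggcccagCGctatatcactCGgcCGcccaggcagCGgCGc
RIN3, chr14:92513531-92513780, plus strand: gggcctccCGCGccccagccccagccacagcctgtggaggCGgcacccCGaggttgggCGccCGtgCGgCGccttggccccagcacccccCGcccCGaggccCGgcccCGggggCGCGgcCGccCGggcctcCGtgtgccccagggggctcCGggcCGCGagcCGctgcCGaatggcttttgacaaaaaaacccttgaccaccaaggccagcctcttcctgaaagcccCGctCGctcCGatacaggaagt
ZNF354C, chr5:179060123-179060372, plus strand: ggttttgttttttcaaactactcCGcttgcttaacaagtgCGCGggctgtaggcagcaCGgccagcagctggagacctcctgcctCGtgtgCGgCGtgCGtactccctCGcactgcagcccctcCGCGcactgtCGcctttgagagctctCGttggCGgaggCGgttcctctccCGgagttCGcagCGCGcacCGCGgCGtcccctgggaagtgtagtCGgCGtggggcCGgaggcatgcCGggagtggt

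Many small noncoding RNAs were lower in 4N-2. Libraries were made from polyadenylated RNA, and most of these RNAs carry no poly(A) tail. Of 155 tested snoRNA genes, 59 passed lower and 3 higher, against 14.9% and 17.3% of all genes, 48 of them called lower, against 2.0%, with a median of -0.70. Of 22 mitochondrial tRNA genes, 14 passed lower and 1 higher (median -1.73). SNORD12B, a guide of RNA methylation, was at 3.06, 0.552 and 0.493 RPKM in 4N-2 against 8.70, 9.07 and 7.74, and SNORA73B at 0.497, 0.861 and 1.32 against 7.90, 6.41 and 4.26. These values rest on few reads, 15 against 96 for SNORD12B and 23 against 155 for SNORA73B over the 3 libraries of each clone. MT-TL1, a leucine tRNA, was at 77.7, 52.2 and 62.2 against 327, 358 and 351 RPKM (-2.44), and MT-TE, the glutamate tRNA, at 36.4, 22.9 and 34.1 against 134, 145 and 149.8. The snoRNA genes took 0.00530% to 0.00635% of the reads of the 4N-2 libraries, 0.00779% to 0.00991% in 4N-3 and 0.00784% to 0.00936% in the 12 others. The part of library preparation in this difference was not tested.

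Mitochondrial protein genes differed in both directions. MT-ND1 and MT-ND2, subunits of complex I at the start of the heavy strand's transcript, were higher, with MT-ND2 at 9503, 6848 and 7134 RPKM against 2107, 2136 and 2008 (1.89), while MT-CO1, of cytochrome oxidase, was at 4079, 3295 and 3439 against 6757, 6606 and 7478 (-0.95). MT-CYB (-0.92), MT-ND5 (-1.16) and the ribosomal RNA MT-RNR2 (-0.67) were lower. MT-ND3 (0.54) and MT-ATP6 (0.50) passed higher too. Of the 13 protein genes 4 thus passed higher and 3 lower, against 17.3% and 14.9% of all genes. The mitochondrial genome as a whole took 6.17%, 4.62% and 4.55% of reads in 4N-2 and 4.55%, 4.56% and 5.01% in 4N-3, overlapping ranges. MT-ND2 has a near-identical pseudogene on chromosome 1, MTND2P28, and how the counting split reads between them is not given in the sources used here.

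Chromosome 1 was lower in 4N-2 along its whole length. Over its 1170 genes that averaged at least 300 reads per library, the median log2 difference of reads was -0.31, and the 9 pairs of 1 library from each clone gave -0.36 to -0.26. Only 18.0% of these genes were above 0. By the test on reads, 49.3% of them passed lower and 6.75% higher, against 20.8% and 18.1% of the 11870 such genes of all chromosomes. The medians of the other chromosomes with their own genes lay between -0.04 and 0.10, and the 17 mitochondrial genes were at -0.30. In 57 windows of 40 neighbouring genes along chromosome 1, medians ran from -0.55 to -0.14, so that no window was at 0. Of 501 windows on other chromosomes, 23 were at or below the highest of chromosome 1, and none at or below its median window. Relative to the mean of the 6 libraries of the diploid clones 2N-1 and 2N-2, the median of chromosome 1 was at -0.30, -0.32 and -0.28 in A, B and C of 4N-2 and at 0.05, 0.05 and -0.01 in 4N-3, so that 4N-2 was the clone that lay away from them. Without C of 4N-3 the median was -0.34, and between the diploid clones 2N-2 and 2N-3 it was -0.01. DNA copy number was not measured in these files. G0S2 and BTG2, both on chromosome 1, were higher in 4N-2 against the median of their chromosome, and of the cholesterol genes FDPS, HSD17B7 and PMVK are among those that lie there.

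**Figure D5:**
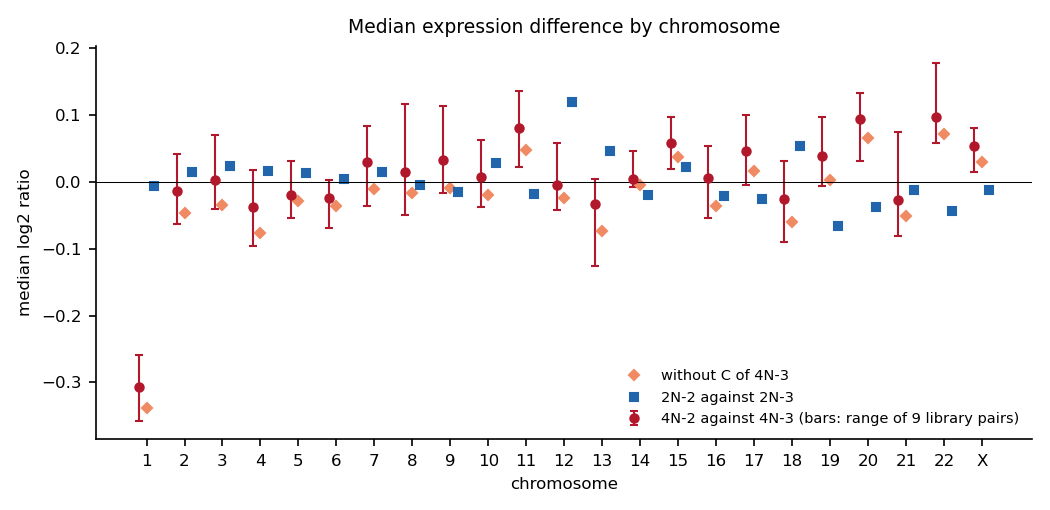
Median log2 difference of reads between 4N-2 and 4N-3 for the genes of each chromosome (red, bars from the lowest to the highest of 9 library pairs), the same without C of 4N-3 (orange), and between 2N-2 and 2N-3 (blue). Chromosome 1 is at -0.31 between the tetraploid clones and at -0.01 between the diploid ones, and all other chromosomes lie between -0.04 and 0.10 in red.

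The diploid clones from the same plates differed far less from each other. Between 2N-2 and 2N-3, 1 gene was called higher (0.0103%) and 12 lower (0.124%), and 41 (0.423%) and 58 (0.598%) passed at any fold. Library A of 2N-3 lay far from all others on the second component, at 55.6, and widened the spread of its clone; without it 2 genes were called higher and 7 lower. Of the 180 genes called higher in 4N-2, 0 were called in the diploid comparison, and of the 194 called lower 1 was (0.515% of the 194 and 8.33% of the 12). The difference of the differences, 4N-2 minus 4N-3 less 2N-2 minus 2N-3, was called for 274 genes in the positive direction (2.82%) and 232 in the negative (2.39%), and 1392 (14.3%) and 1132 (11.7%) passed. It passed in the same direction for 167 of the 180 (92.8%) and for 168 of the 194 (86.6%). These genes were chosen by the tetraploid difference, which is part of the difference of differences, so that these shares are largely set by the choice. For the cholesterol genes the diploid median was 0.10 and 20 of 24 passed in the difference of differences; for the genes induced by DNA damage the diploid median was 0.05 and 18 of 26 passed higher and 1 lower. HMGCS1 was at 13.3 RPKM in 2N-2 and 10.1 in 2N-3, and CDKN1A at 14.1 and 11.3, so that neither showed the order of the tetraploid clones at that size. TAGLN had -0.50 between the tetraploid clones and -0.61 between the diploid ones, which did not pass, and a difference of differences of 0.11, which did not pass either.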

How the data were processed

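Messenger RNA was measured in 18 libraries of 6 RPE1 clones, 3 per clone, as polyadenylated RNA in stranded libraries, per the labels' protocols. The authors deposited 1 RPKM value per gene and library for 57773 genes. Reads were demultiplexed with CASAVA 1.8.2 and processed with TopHat2 and edgeR on hg19, per the submitters' processing notes, which give them without order. The annotation and the use of strand in counting are not given in the sources used here. The length implied by the deposited values lay within 0.5% of the genomic span, introns included, in 87.09% of the 24818 genes that had more than 50 reads. Names and positions printed are from GENCODE 29 (GRCh38, not hg19), which matched 52338 genes by identifier.

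The RPKM values of each gene were whole multiples of 1 read, and 100% of values above 0 came out whole within 0.01 reads, with the factor of 362 genes set from the span. Dividing these reads by the divisor each library implied gave reads per M. The log2(RPKM + 0.5) values were fitted, for genes that reached 1 RPKM in at least 3 libraries, in limma 3.58.1 (R 4.3.3) with a mean per clone over all 18 libraries and a trend in the spread, and the recovered reads with limma-voom, for genes that reached 10 reads in at least 3 libraries. Two-sided p-values were adjusted by Benjamini-Hochberg over all genes of a fit. A gene passed at an adjusted p below 0.05 and was called with a difference of 2-fold or more. On simulated data the test was checked to recover known changes. Letters A, B and C do not pair libraries: deviations of same-lettered libraries of 4N-2 and 4N-3 correlated at -0.09, -0.09 and -0.33 over genes. Replicates are the submitters' biological replicates of 1 clone.

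The members and the 35 gene lists were chosen with earlier results of these data known. Named genes were the 12 called genes furthest in each direction with libraries that did not overlap and a higher mean of 2 RPKM or more, up to 8 protein-coding genes per direction tested on reads only, up to 4 passing members of each list or more where a member carries the description, genes of G1 control with EGR1 and FOS, and on/off genes. Some genes that this rule or the lists hold are not reported by name here, and the counts include them. Promoters are the 250 bases before the start in a RefSeq table. Chromosome medians used windows of 40 genes in steps of 20.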

Additional observations from a re-analysis of the deposited data

Results flagged for a closer look

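The difference between 4N-2 and 4N-3 itself differed from that between 2N-2 and 2N-3, by the test of the difference of differences (limma, adjusted over all genes), in 167 of the 180 genes called higher and 168 of the 194 called lower in 4N-2. Without C of 4N-3 these counts were 163 and 153, and without A of 2N-3 they were 170 and 176. The genes were chosen by the tetraploid difference, which the tested value contains, so that high counts are largely set by the choice.

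Genes named by the rules on size and the genes of G1 control with EGR1 and FOS were searched for opposite signs in the tetraploid and diploid comparisons. For 8 of those given here both comparisons passed with opposite signs and their difference passed. They were CADM1, with a difference of differences of 13.6 on the log2 scale, GPR143 (10.8), TBX3 (12.6), CCND2 (5.51), and the overlapping genes UGT1A4 (-8.46), UGT1A3 (-8.45), UGT1A1 (-8.36) and UGT1A5 (-8.25), which share reads and count as 1 locus. Where a clone had 3 reads or fewer, as 4N-3 for TBX3, 4N-2 for UGT1A4 and UGT1A3 and 2N-2 for CADM1 and CCND2, the fitted value depends on the constant added before the logarithm and is no measure of size. GPR143 was at 38.2 reads per M in 4N-2 and 0.0746 in 4N-3, and at 11 in 2N-2 and 28.4 in 2N-3. All 8 passed again without C of 4N-3 and without A of 2N-3, the least certain at an adjusted p of 1.4e-05 (CCND2 without A of 2N-3).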

How the results depend on the processing

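The call counts depended on how low values were handled, while the named genes mostly kept their side of the test. Many of them were named because they had large differences that passed in these fits, so that this is partly set by the choice. With a constant of 1 in place of 0.5 before the logarithm, 116 genes were called higher and 115 lower between 4N-2 and 4N-3, and with 0.1 they were 250 and 291. With a minimum of 5 RPKM they were 66 and 113, fewer genes being tested, and with recovered reads on the same genes 278 and 320. A minimum of 50 reads gave 911 and 902 called on reads, again with fewer tested. The constant of 0.1 gave 349 genes in the negative direction of the difference of differences. Centring each library on its median gave 165 higher and 202 lower. Leaving out 1 library of 4N-2 or 4N-3 at a time gave 174 to 182 higher and 168 to 192 lower. Without A of 2N-3 the diploid comparison called 2 higher and 7 lower. Without C of 4N-3, 2 mitosis genes and 2 replication genes passed higher. On/off counts were 24 and 15 with off at 10 reads or fewer, and 4 and 0 with on at 1000 reads or more. Apart from fewer genes tested, the cause was not tested.

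With a replicate block, in which the letters A, B and C pair libraries, 179 genes were called higher and 192 lower on RPKM, 1428 and 1508 on reads, 269 and 223 for the difference of differences, and 1 and 11 between the diploid clones. The letters do not pair the libraries by the check of their correlations. Over all alternatives, 7 of 152 named genes lost the test in at least 1 setting (EBP, TAGLN, MT-ND3, MT-ATP6, CCND3, CDK1 and SNAP25), and EBP was the 1 that did so with the block.

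EGR1 and FOS, which did not pass in any setting, changed sign when 1 library was left out, EGR1 over a range of -0.0878 to 0.224 and FOS of -0.107 to 0.303. Depth limits what can be said of genes near 0, where 3 reads over a clone are the floor, and intervals cover counting error only.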
